A study of Arabidopsis thaliana with 4 samples.

Results

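The systemic wound response of wild type was described from 2 arrays, wt wounded and wt control, out of the 4 Affymetrix ATH1 arrays of the series. The members were chosen by their labels alone: the array titled as the wild type after systemic wounding and that titled as its control. ATH1 arrays measure transcripts of Arabidopsis thaliana with probe sets, groups of short oligonucleotides that lie near the 3' end of a transcript, and the values used here are log2 expression values. The 4 groups were wt wounded, wt control, opr3 wounded and opr3 control, with 1 array in each. All plants were 6 weeks old and came from a 21 °C chamber with a day of 10 h and a night of 14 h. In wounded plants some rosette leaves were squeezed across the midvein with tweezers, and RNA was taken 2 h later from leaves of the same plants that had been left whole. Control plants were not wounded. The line opr3 carries a lesion in a 12-oxophytodienoate reductase of jasmonic acid synthesis, and it serves here only to place wt values beside a second line. Neither the accession of the lines nor the number of plants per array is given in the sources used here. One label conflict was met: opr3 wounded is described as wt plants in its treatment field and as opr3 in its title, and the title was followed.

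Wounding of one leaf is known to set off electrical and calcium signals that travel to other leaves through the vasculature. In those leaves jasmonic acid is made from plastid lipids through lipoxygenase, allene oxide synthase, allene oxide cyclase and 12-oxophytodienoate reductase, followed by beta-oxidation in peroxisomes. Its isoleucine conjugate brings JAZ repressors to a ubiquitin ligase, which frees MYC transcription factors to act on defence genes, glucosinolate genes and genes for the breakdown of the hormone itself.

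Since each group holds 1 array, the spread between plants is unknown, and every difference below describes 2 arrays with no replicate check. A gene is called higher or lower where the 2 arrays differ by at least 2-fold, a log2 difference of 1. A fold that rests on a value under 4.73 in either wt array, the level of the filter on low values, is given with the word about. In whole leaves, fewer cells of a type and less RNA per cell cannot be told apart.

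The labelled tissue was checked against markers of leaf and other cell types. The 4 named mesophyll markers (LHCB4.1, RCA, PRK and SBPASE) had log2 values from 11.76 to 13.56 in wt wounded and from 11.97 to 13.56 in wt control leaves, and their linear levels summed to 32527 in wt wounded and 33837 in wt control leaves. The 2 guard cell markers summed to 522 in wt wounded and 635 in wt control leaves, and the only named trichome marker, TRY, stood at 54.9 in wt wounded and 75.4 in wt control leaves. Of 5 named root markers 1 passed the filter, and neither of the 2 flower markers nor the seed marker PAP85 did. No marker of any type differed by 2-fold between the wt arrays. Markers of epidermis, phloem, xylem and bundle sheath were not named on the array and were not analysed here.

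The wt wounded array stood apart in its array controls. For 8 pairs of probe sets on spiked polyA RNA, the 5' probe set lay below the 3' probe set by a mean log2 value of -2.00 on the wt wounded array and -1.16 on the wt control array. On the opr3 wounded and opr3 control arrays these means were -1.29 and -1.27. For 6 pairs on plant transcripts they were -1.18 in wt wounded, -0.86 in wt control, -0.88 in opr3 wounded and -0.92 in opr3 control. Hybridization controls, which are added after labelling, were near each other, from -0.41 to -0.30. Several pairs measure the same transcript, such as dap or actin, so the pairs are not independent. In the means of the spiked and plant controls, signal from the 5' part relative to the 3' part was lowest on the wt wounded array. Among plant pairs, 1 for ubiquitin had -0.44 in wt wounded and -0.45 in wt control. Another, for GAPDH, had 0.075 in wt wounded and 0.052 in opr3 control. The lower mean 5' signal moves with the wounding contrast in wt, and its part in the differences below was not tested.

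At the 2-fold limit, more probe sets were higher than lower in wounded wt leaves. Of 14528 probe sets that passed the filter and were not named as organellar, 576 were at least 2-fold higher (3.96% of those measured) and 238 at least 2-fold lower (1.64%). The central 95% of differences ran from -0.90 to 1.34, so the upward tail was the longer one. At 3-fold the counts were 251 higher and 31 lower, and at 1.5-fold they were 1215 higher and 1211 lower. Named nuclear genes numbered 7792, with 257 higher (3.3%) and 112 lower (1.44%), and their median difference was -0.05. Probe sets with no gene name in the annotation held more of the higher calls, 319 of 6628 (4.81%), so the names below cover less than the 576. The largest difference among unnamed probe sets was 5.10, from 10.30 in wt wounded and 5.21 in wt control leaves.

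**Figure D1:**
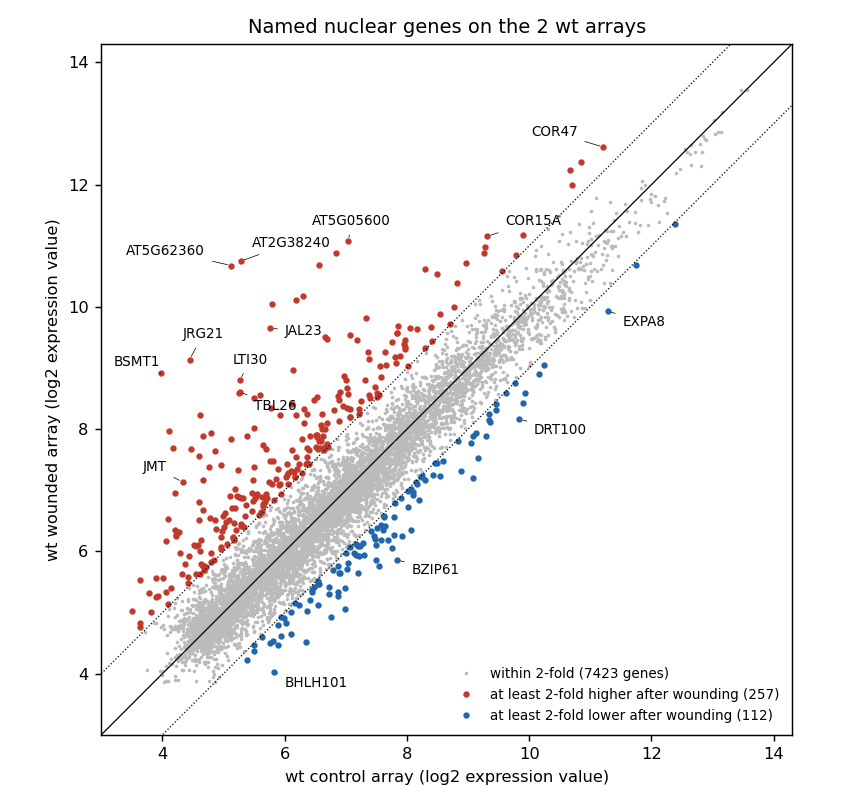
Log2 expression values of 7792 named nuclear genes, wt wounded on the y axis against wt control on the x axis. Red points are the 257 genes at least 2-fold higher in wounded plants, blue points the 112 at least 2-fold lower; the solid line marks equal values and the dotted lines 2-fold. The genes farthest above the line start from low control values, between about 4 and 7.

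Probe sets called higher in wt had a lower median control value than all probe sets. The call and the filter partly set this. The median value of the 576 probe sets was 7.86 in wt wounded and 6.17 in wt control leaves, whereas all 14528 probe sets had medians of 6.73 in wt wounded and 6.75 in wt control leaves. Of the 576, 97 (16.8%) lay below the filter level in wt control leaves, against 7.38% of all probe sets. The share called higher was 6.64% among probe sets with control values under 5 and 0.826% among those at 12 or more. These 2 quantities are not independent, because a low control value also enters the difference. The filter bears on them too: a probe set under 4.73 in wt control leaves was kept only where another array reached that level. The shares are thus partly set by the filter, and no conclusion is drawn from them. The 238 lower probe sets had medians of 6.08 in wt wounded and 7.40 in wt control leaves, and 24 of them lay under the filter level in wt wounded leaves.

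Genes that modify or turn over jasmonates were among those with the largest differences. The list for jasmonate turnover and modification held 14 genes, of which 5 had a named probe set and 4 of these passed the filter. The 4 were called higher, with a median log2 difference of 4.36, but JRG21 and JMT passed the filter on the wt wounded array alone. For such genes a higher value after wounding is fixed by the filter, so the count and median of the 4 support nothing. The other members, AT2G38240 and AT5G05600, had a median of 4.75, beside -0.05 for all named nuclear genes. AT2G38240 had 10.75 in wt wounded and 5.28 in wt control leaves, a 44.1-fold difference. JRG21, the jasmonate-regulated gene 21, had 9.13 in wt wounded and 4.44 in wt control leaves, or about 25.8-fold. AT5G05600 had 11.08 in wt wounded and 7.04 in wt control leaves, or 16.4-fold. For these 3 genes the wt wounded array was the highest of the 4, and 1 of the 3 wt control values was under the filter level. JMT, which methylates jasmonic acid, had 7.13 in wt wounded and 4.33 in wt control leaves, or about 6.98-fold. BSMT1, a relative of JMT in the SABATH family that methylates salicylic and benzoic acid, had 8.91 in wt wounded and 3.97 in wt control leaves, or about 30.7-fold, and it too passed the filter on that array alone. SAMTL, the third SABATH gene measured, had 8.01 in wt wounded and 8.22 in wt control leaves, so the family did not move as one.

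Jasmonic acid synthesis itself was thinly covered, with 2 of 22 listed genes measured. OPCL1, the ligase that activates the precursor OPC-8 for beta-oxidation, had 8.86 in wt wounded and 7.57 in wt control leaves, a 2.45-fold difference. AIM1, a multifunctional protein of beta-oxidation, had 9.54 in wt wounded and 9.77 in wt control leaves. Lipoxygenases, allene oxide synthase and cyclases, OPR3 and all 12 JAZ repressors were not named on the array and were not analysed here.

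In opr3, 3 of the 4 measured genes of jasmonate turnover and modification were called higher, beside 4.2% of all named nuclear genes. JMT was 1 of them, at 4.63 in opr3 wounded and 3.56 in opr3 control leaves, both under the filter level. JRG21 had 4.10 in opr3 wounded and 4.03 in opr3 control leaves, and BSMT1 had 3.61 in opr3 wounded and 3.86 in opr3 control leaves, all 4 values being under the filter level. AT2G38240 had 6.22 in opr3 wounded and 5.20 in opr3 control leaves, a log2 difference of 1.02 beside 5.46 in wt. AT5G05600 differed by 4.13 in opr3 and 4.04 in wt, and its control value was lower in opr3 than in wt, at 4.95 against 7.04. No difference between the responses of the lines could be tested with 1 array a group.

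Of the MYC branch of the jasmonate response, 6 of 18 listed genes were measured, and 3 were higher, with a median of 1.26, beside 3.3% of all named nuclear genes. AT1G54020 and THI2.1 passed the filter on the wt wounded array alone, and without them 2 of 4 were higher with a median of 0.91. AT3G51450 had 10.68 in wt wounded and 6.57 in wt control leaves, a 17.3-fold difference. AT1G54020 had 6.32 in wt wounded and 4.28 in wt control leaves, or about 4.12-fold. AT3G28220 had 10.73 in wt wounded and 8.97 in wt control leaves, or 3.37-fold. The genes of this list that stayed within 2-fold were THI2.1, a thionin, at 5.19 in wt wounded and 4.42 in wt control leaves, and the transcription factors MYC3 and MYC4. MYC3 stood at 7.18 in wt wounded and 7.11 in wt control leaves, and MYC4 at 6.19 in wt wounded and 6.51 in wt control leaves. The 3 called genes thus do not include the transcripts of either MYC factor.

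The measured genes of the ERF branch and of the salicylate response stayed within 2-fold in wt. Only 3.3% of all named nuclear genes were higher and 1.44% lower, so nothing is read from the lack of calls in lists this small. The ERF branch, which ethylene and jasmonate drive together, was measured through CHI, a chitinase, with a difference of 0.81, and the defensins PDF1.2b (0.08) and PDF1.2 (-0.06). All 4 measured genes of the salicylate response were within 2-fold, with a median of -0.17; the glutaredoxin GRX480 differed by 0.40 and the lipase-like SAG101 by -0.12. In opr3, 3 of these 4 were higher, beside 4.2% of all named nuclear genes, and the median was 2.28. There GRX480 stood at 6.87 in opr3 wounded and 4.62 in opr3 control leaves. GRX480 had 6.42 in wt wounded and 6.01 in wt control leaves, so the opr3 control array was the lowest of the 4.

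**Figure D2:**
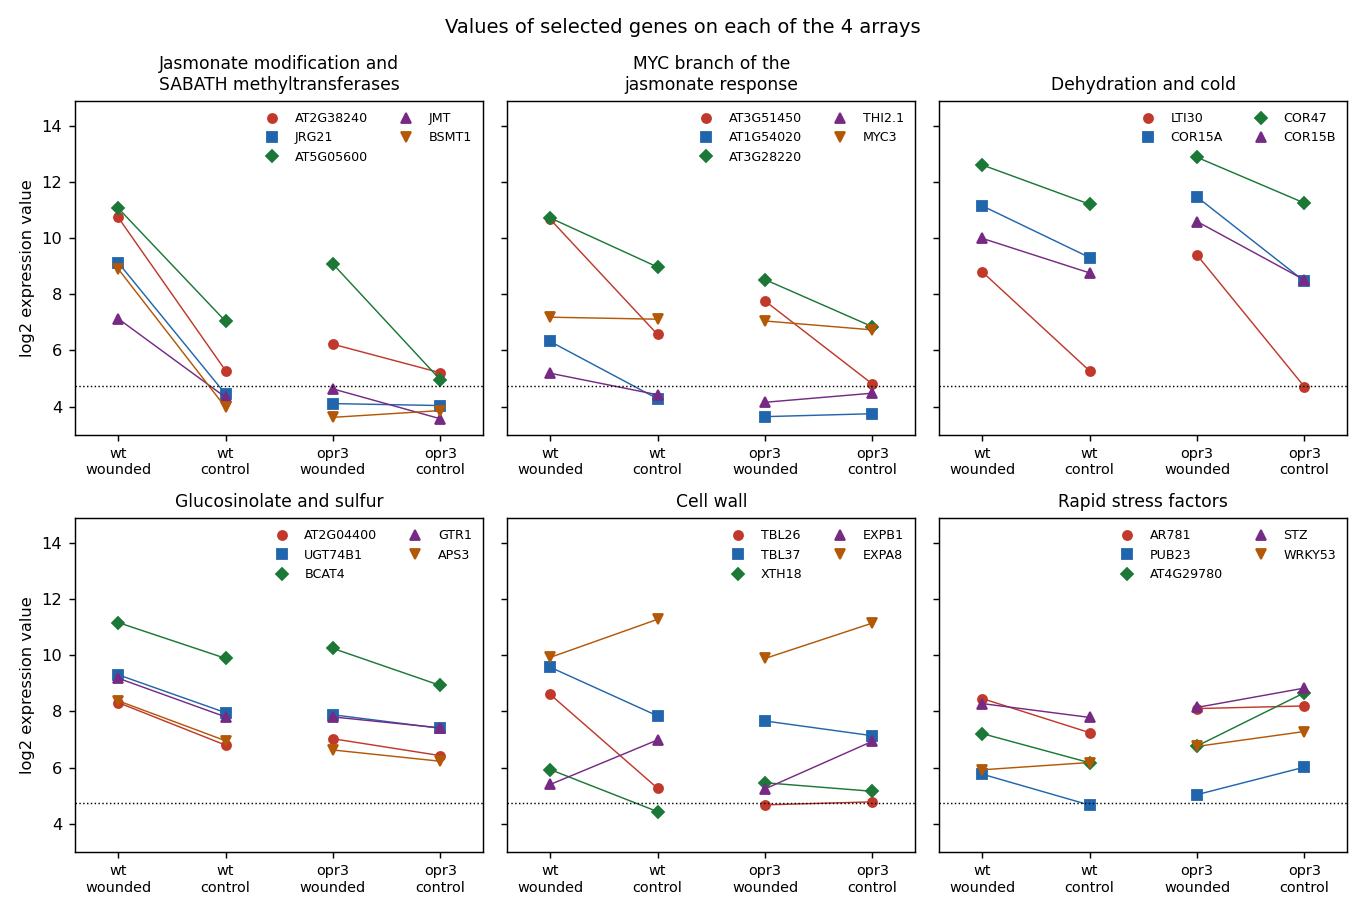
Log2 expression value (y axis) of 29 genes on each of the 4 arrays (x axis), in 6 panels by gene group; lines join the wounded and the control array of a line, and the dotted horizontal line is the filter level of 4.73. JRG21, BSMT1 and TBL26 are high on the wt wounded array and near or under the filter level on both opr3 arrays, whereas the dehydration and cold genes are higher on both wounded arrays than on their controls.

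The measured dehydration and cold genes were higher in wounded wt leaves. All 4 genes measured of the 25 listed for abscisic acid, dehydration and cold were called higher, beside 3.3% of all named nuclear genes, with a median of 1.62, and all 4 were called higher in opr3 as well, with a median of 2.54. LTI30, a dehydrin, had 8.80 in wt wounded and 5.27 in wt control leaves, an 11.6-fold difference. COR15A, a cold-regulated protein of the chloroplast stroma, had 11.15 in wt wounded and 9.31 in wt control leaves, or 3.59-fold. COR15B, its neighbour in the genome, differed by 2.35-fold and COR47, a dehydrin, by 2.64-fold. COR47 had 12.61 in wt wounded and 11.21 in wt control leaves. These 4 genes also stood in the list of late embryogenesis abundant proteins, of which 8 were measured and the other 4 were within 2-fold, LEA4-5 among them at 0.25. LTI30 reached 9.40 in opr3 wounded and 4.70 in opr3 control leaves, so its wounded value was higher and its control value lower in opr3 than in wt.

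Among genes for glucosinolates, the sulfur-rich defence compounds of the cabbage family, 3 enzymes and 1 of 2 measured transporters were higher, by 2.42-fold to 2.86-fold. Of all named nuclear genes 3.3% were higher. Of 21 genes listed for indole glucosinolates and tryptophan only 2 were measured, and both were higher. AT2G04400 had 8.32 in wt wounded and 6.80 in wt control leaves, a 2.86-fold difference. UGT74B1, which adds glucose to the glucosinolate core, had 9.31 in wt wounded and 7.96 in wt control leaves, or 2.55-fold. Of the 2 measured genes for aliphatic glucosinolates, BCAT4, the aminotransferase that starts methionine chain elongation, had 11.17 in wt wounded and 9.90 in wt control leaves, or 2.42-fold, while AT2G31790 differed by 0.89, within the limit. The transporter GTR1, which loads glucosinolates into phloem, had 9.19 in wt wounded and 7.81 in wt control leaves, or 2.60-fold, and its relative GTR2 was within 2-fold, at 0.67.

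In sulfur assimilation 1 of 3 measured genes was higher, beside 3.3% of all named nuclear genes. APS3, an ATP sulfurylase, had 8.38 in wt wounded and 6.96 in wt control leaves, or 2.69-fold. SIR, the sulfite reductase, differed by 0.73, and APS4, another ATP sulfurylase, by -0.51. In opr3 the differences were 0.40 for APS3, 0.02 for SIR, 0.39 for GTR1 and 0.48 for UGT74B1, each smaller than in wt, whereas BCAT4 differed by 1.32 in opr3 and 1.28 in wt. GTR1 and BCAT4, counted above, belong to the list of nitrogen and amino acid metabolism, where 3 of 8 measured genes were higher. The median was 0.68. One member, AT1G72125, passed the filter on the wt wounded array alone. Without it 3 of 7 were higher with a median of 0.70, beside 3.11% of all named nuclear genes counted in the same way. The other higher member, AT3G21670, a member of the nitrate and peptide transporter family, had 10.84 in wt wounded and 9.79 in wt control leaves.

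UDP-glycosyltransferases, which attach sugars to hormones and secondary metabolites, held 7 higher genes and none lower among 25 measured, with a median of 0.17. Without UGT76E12, which passed the filter on the wt wounded array alone, 6 of 24 were higher, beside 3.11% of all named nuclear genes counted in the same way. UGT76E12 had 5.54 in wt wounded and 3.63 in wt control leaves, or about 3.75-fold. UGT84A3 had 7.90 in wt wounded and 6.52 in wt control leaves, or 2.60-fold. UGT71B1 differed by 2.51-fold, UGT76E11 by 2.38-fold, UGT85A4 by 2.22-fold and UGT78D1, a flavonol rhamnosyltransferase, by 2.18-fold. In opr3 the called ones were UGT76E11, which was higher, and UGT85A5, which was lower with a difference of -1.03; UGT85A5 differed by -0.80 in wt.

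Of 13 measured cytochromes P450, oxidases of many secondary pathways, 2 were lower and none higher in wt, with a median of -0.33. Of all named nuclear genes 3.3% were higher and 1.44% lower, so nothing is read from the lack of a higher one among 13. CYP71B5 had 5.80 in wt wounded and 7.04 in wt control leaves, 2.36-fold lower. CYP71B23 had 6.98 in wt wounded and 8.02 in wt control leaves, or 2.05-fold lower, and lay within the limit, at -0.96, when corrected by lowess. CYP71B24, at -0.99, came just past it under quantile normalization and under lowess. CYP71B26 had the highest difference, 0.79. All measured genes of the P450 list but CYP84A4 and CYP78A9 belong to the CYP71B group.

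The list of beta-glucosidases and jacalin lectins, which act in the activation of stored defence compounds, held 4 higher genes among 10 measured and none lower. Its median was 0.69. Of all named nuclear genes 3.3% were higher and 1.44% lower. Without BGLU15 and NAI1, which passed the filter on the wt wounded array alone, 4 of 8 were higher with a median of 1.19. JAL23, a jacalin-related lectin, had 9.65 in wt wounded and 5.76 in wt control leaves, a 14.8-fold difference. BGLU40 had 9.47 in wt wounded and 6.69 in wt control leaves, or 6.87-fold. BGLU25 differed by 4.05-fold and the lectin JAL34 by 3.91-fold. JAL34 had 5.41 in opr3 wounded and 5.55 in opr3 control leaves, and JAL23 had 6.07 in opr3 wounded and 4.03 in opr3 control leaves, so both lectins were highest on the wt wounded array. BGLU40 was higher still on the opr3 wounded array, at 10.28, with 6.14 in opr3 control leaves.

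Among 16 measured genes of ascorbate, glutathione and redox metabolism, 2 were higher and none lower, beside 3.3% higher and 1.44% lower of all named nuclear genes. The peroxidase AT5G64120 had 6.34 in wt wounded and 4.97 in wt control leaves, or 2.58-fold. ATMDAR2, a monodehydroascorbate reductase, had 9.09 in wt wounded and 7.82 in wt control leaves, or 2.41-fold. The tau-class glutathione transferases ran both ways within 2-fold, from 0.87 for GSTU20 to -0.96 for GSTU27.

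Cell wall genes were called in both directions. In the list for cellulose, callose and wall acetylation, 4 of 26 measured genes were higher and 1 was lower, with a median of 0.17, beside 3.3% higher and 1.44% lower of all named nuclear genes. TBL26, of a family whose members acetylate wall polysaccharides, had 8.61 in wt wounded and 5.26 in wt control leaves, a 10.2-fold difference. TBL37, of the same family, had 9.58 in wt wounded and 7.84 in wt control leaves, or 3.33-fold. The glucan synthase relatives CSLA01 and CSLD2 differed by 2.19-fold and 2.02-fold. The lower member, AT2G31110 (trichome birefringence-like 40), was measured by 2 probe sets that differed by -1.25 and -1.18. TBL26 stood at 4.67 in opr3 wounded and 4.78 in opr3 control leaves, near the filter level on both.

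The expansins EXPB1, EXPA8 and EXPB3, of a family that loosens walls during growth, were lower. Of 14 measured genes for expansins and xyloglucan-modifying enzymes, 1 was higher and these 3 lower, with a median of -0.24, beside the same shares of all genes. EXPB1 had 5.40 in wt wounded and 6.99 in wt control leaves, or 3.01-fold lower. EXPA8 had 9.93 in wt wounded and 11.29 in wt control leaves, or 2.57-fold lower. EXPB3 differed by about 2.02-fold in the same direction, just past the limit, and lay within it when the arrays were quantile normalized or corrected by lowess. The higher member was XTH18, a xyloglucan endotransglucosylase, with 5.93 in wt wounded and 4.43 in wt control leaves, or about 2.83-fold. EXPB1 and EXPA8 had nearly the same values in opr3, with differences of -1.70 and -1.26. None of the 3 measured genes of the pectin list, which holds 57, reached 2-fold.

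Single genes of transport and hormone lists also passed the limit, beside 3.3% higher and 1.44% lower of all named nuclear genes. Counts this small do not set the lists apart from those shares. Among 13 genes of sugar transport and invertases, SWEET17, a fructose transporter of the vacuole, was 2.18-fold higher and SWEET13, a sucrose exporter, was about 2.40-fold lower. SWEET13 had 4.54 in wt wounded and 5.80 in wt control leaves. AT5G52050 (detoxification efflux carrier 50) was the only measured gene of the MATE transporter list, which holds 5. It had 6.68 in wt wounded and 4.67 in wt control leaves, or about 4.05-fold. GH3.3, which joins auxin to amino acids, had 6.25 in wt wounded and 4.22 in wt control leaves, or about 4.07-fold, and was the 1 higher gene among 6 of the auxin response.

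Among calcium sensors and rapid stress genes, CML41, AR781, PUB23 and AT4G29780 were higher by 2.05-fold to 2.33-fold. The 5 measured genes of the touch and calcium list were all calmodulin-like proteins; CML41 was 2.28-fold higher and the others were within 2-fold, as CML42, CML30 and CML38 differed by 0.98, 0.86 and 0.84, and CML23 by -0.24. Of 6 rapid stress factors 3 were higher, beside 3.3% of all named nuclear genes, and the median was 0.77. AR781 had 8.46 in wt wounded and 7.24 in wt control leaves, or 2.33-fold. The ubiquitin ligase PUB23 had 5.77 in wt wounded and 4.66 in wt control leaves, or about 2.15-fold, and its close relative PUB22 was about 2.03-fold higher. AT4G29780 had 7.21 in wt wounded and 6.17 in wt control leaves, or 2.05-fold. The zinc finger factor STZ differed by 0.49 and WRKY53 by -0.26. In opr3 control leaves the same genes were high: AT4G29780 stood at 8.67, PUB23 at 6.02, STZ at 8.84 and AR781 at 8.20, the first 3 of these being the highest value of the gene on any of the 4 arrays.

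Transcription factor lists held single calls or none, beside 3.3% higher and 1.44% lower of all named nuclear genes, and counts this small do not set them apart from those shares. No measured gene of the WRKY list (6), the MYB list (2) or the list of developmental factors (19) reached 2-fold. Factors given by their locus tag alone may lie outside these lists. The DREB-type factor tny had 7.88 in wt wounded and 5.38 in wt control leaves, a 5.69-fold difference, beside 4.28-fold in opr3. BZIP61 had 5.86 in wt wounded and 7.84 in wt control leaves, 3.93-fold lower. It was the only one of 14 measured genes of the bZIP list past the limit. BHLH101, a regulator of iron uptake, had 4.02 in wt wounded and 5.83 in wt control leaves, about 3.49-fold lower. It was the only one called among 12 measured genes of the bHLH list. BZIP61 and BHLH101 were lower in opr3 too, by -2.26 and -1.91. The other 3 measured iron and metal genes stayed within 2-fold.

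No measured gene in the lists for nuclear photosynthesis, chlorophyll metabolism and cell division reached 2-fold. As only 3.3% of all named nuclear genes were higher and 1.44% lower, the lack of calls does not set these or the following small lists apart. The 10 genes of the light reactions had a median of 0.00 and a range from -0.34 (PGRL1B) to 0.18 (LHCB4.3). The 6 genes of carbon fixation had a median of -0.11, with PRK at -0.33, and the 8 genes of chlorophyll metabolism a median of -0.06. Cell division genes (6 measured) and chaperones (9 measured) gave no call, with medians of 0.08 and 0.17. The glutamate receptor-like channels, some of which carry wound signals between leaves, were within 2-fold as well, with GLR3.3 at 0.37 and GLR3.6 at -0.27.

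Over all 59 lists, 35 had at least 3 measured genes, 17 had 1 or 2 and 7 had none. The 320 genes that stood in any list included 45 higher (14.1%) and 10 lower (3.13%), with a median of 0.04. These shares lie above the 3.3% and 1.44% of all named nuclear genes, but the lists were drawn up with earlier results of these arrays known, so their excess is no independent evidence. Of the 35 lists, 4 had a median of at least 1: jasmonate turnover, SABATH methyltransferases, dehydration and cold, and the MYC branch. Without the genes that passed the filter on 1 wt array alone, 40 of 307 listed genes were higher (13.0%) and 10 lower (3.26%), the MYC branch fell below 1, and the SABATH and turnover lists held 1 and 2 genes. The median of the beta-glucosidase and jacalin list, 0.69 over 10 genes, became 1.19 over the 8 left. In 13 of the 35 lists no gene was past the limit.

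**Figure D3:**
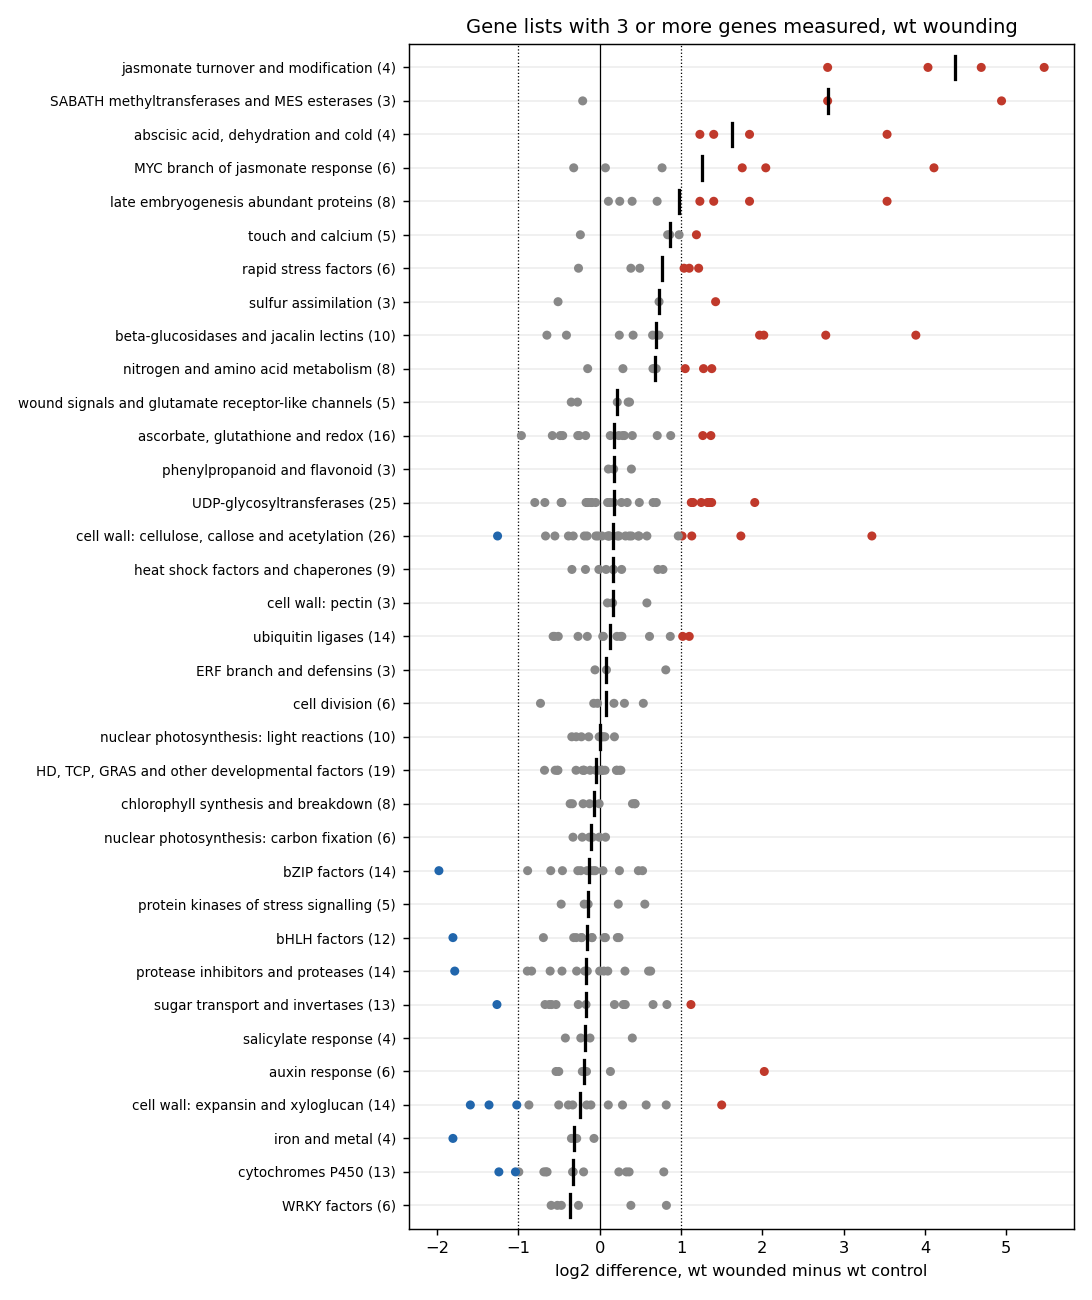
Log2 difference, wt wounded minus wt control (x axis), of each measured gene in the 35 lists with 3 or more genes (y axis, number of genes in brackets), ordered by median. Points are genes, red at least 2-fold higher, blue at least 2-fold lower; black bars are medians and dotted lines mark 2-fold. The 4 uppermost lists have medians from 1.26 to 4.36.

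The 30 named genes with the largest upward differences ran from 6.58-fold to 46.9-fold. Of these, 22 are given by their locus tag alone in the gene table. The first was AT5G62360, with 10.68 in wt wounded and 5.12 in wt control leaves, and 10.43 in opr3 wounded and 5.04 in opr3 control leaves. AT4G30650 had 10.04 in wt wounded and 5.80 in wt control leaves, AT1G15010 had 10.89 in wt wounded and 6.85 in wt control leaves, and AT5G55180 had 10.11 in wt wounded and 6.18 in wt control leaves. These 4 loci had nearly the same differences in opr3, with 5.40, 4.27, 3.81 and 3.91 on the log2 scale. AT2G43550 had 10.18 in wt wounded and 6.30 in wt control leaves, a 14.8-fold difference, beside 2.51-fold in opr3. PRN, a pirin, had 7.93 in wt wounded and 4.80 in wt control leaves, or 8.79-fold. Of the 30, 27 were also higher in opr3, and BSMT1, JRG21 and TBL26 were within 2-fold there.

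The others among these 30 included 12.4-fold for AT2G22880, 11.4-fold for AT1G51090 and 14.4-fold for AT5G06570, each from control values under the filter level and so approximate. AT5G47330 had 8.59 in wt wounded and 5.26 in wt control leaves, or 10.1-fold. AT1G66760 had 8.96 in wt wounded and 6.14 in wt control leaves, AT1G52720 had 9.51 in wt wounded and 6.66 in wt control leaves, and AT1G14780 had 7.64 in wt wounded and 4.86 in wt control leaves. The last of these was higher by 4.20 in opr3 on the log2 scale, beside 2.78 in wt.

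The 20 named genes with the largest downward differences were closer together, from 2.81-fold to 3.93-fold. Besides BZIP61, BHLH101 and EXPB1, they held HIS1-3, a linker histone, with 5.06 in wt wounded and 6.98 in wt control leaves. SCPL34, a serine carboxypeptidase-like protein, had 5.76 in wt wounded and 7.54 in wt control leaves. DRT100, named for DNA damage repair and toleration, had 8.16 in wt wounded and 9.84 in wt control leaves. AT1G66180 had 7.20 in wt wounded and 9.08 in wt control leaves, and AT4G27280 had 7.52 in wt wounded and 9.16 in wt control leaves. Of the 20, 17 were also lower in opr3; the others were AT5G59670 (-1.62 in wt, -0.07 in opr3), AT5G42200 (-1.60 in wt, -0.97 in opr3) and AT1G19960 (-1.56 in wt, -0.35 in opr3).

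Some further genes with a symbol passed the limit outside the lists and were chosen after their values were seen. The methionine sulfoxide reductases MSRB6 and MSRB9, which repair oxidised methionine, were 3.03-fold and 2.47-fold higher, and MGL, a methionine gamma-lyase, had 8.47 in wt wounded and 6.89 in wt control leaves. MSRB6 had 9.65 in wt wounded and 8.06 in wt control leaves, and 7.31 in opr3 wounded and 7.29 in opr3 control leaves. AER, an alkenal reductase, was 2.79-fold higher and PDC2, a pyruvate decarboxylase, 3.15-fold higher. TIL, the temperature-induced lipocalin, had 11.99 in wt wounded and 10.71 in wt control leaves. CCL had 11.36 in wt wounded and 12.39 in wt control leaves, or 2.04-fold lower.

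Larger differences in wt were more often met by a call in opr3. Of 289 probe sets higher by 2-fold to 2.83-fold in wt, 157 (54.3%) were also at least 2-fold higher in opr3, where 4.87% of all probe sets were. The share was 59.7% of 149 between 2.83-fold and 4-fold, 71.9% of 89 between 4-fold and 8-fold, 82.9% of 35 between 8-fold and 16-fold and 78.6% of 14 above that. Among lower probe sets it was 28.6% of 199 and 56.8% of 37 in the first 2 classes, beside 1.69% of all probe sets. The wt and opr3 differences share no array. Counted as shares of each set, the 350 probe sets higher in both lines made up 60.8% of the wt set and 49.4% of the opr3 set, and the 80 lower in both made up 33.6% of the wt set and 32.7% of the opr3 set.

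Of the 257 named genes higher in wt, 161 were higher in opr3 (where 4.2% of all were), 95 were within 2-fold there and 1 was lower. Their median difference was 1.42 in wt and 1.27 in opr3. Of the 112 lower in wt, 45 were lower in opr3 (where 1.72% of all were), 64 were within 2-fold and 3 were higher. For a gene within the limit in opr3, the difference between the lines was not tested, and 251 named genes were past the limit in opr3 but within it in wt.

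**Figure D4:**
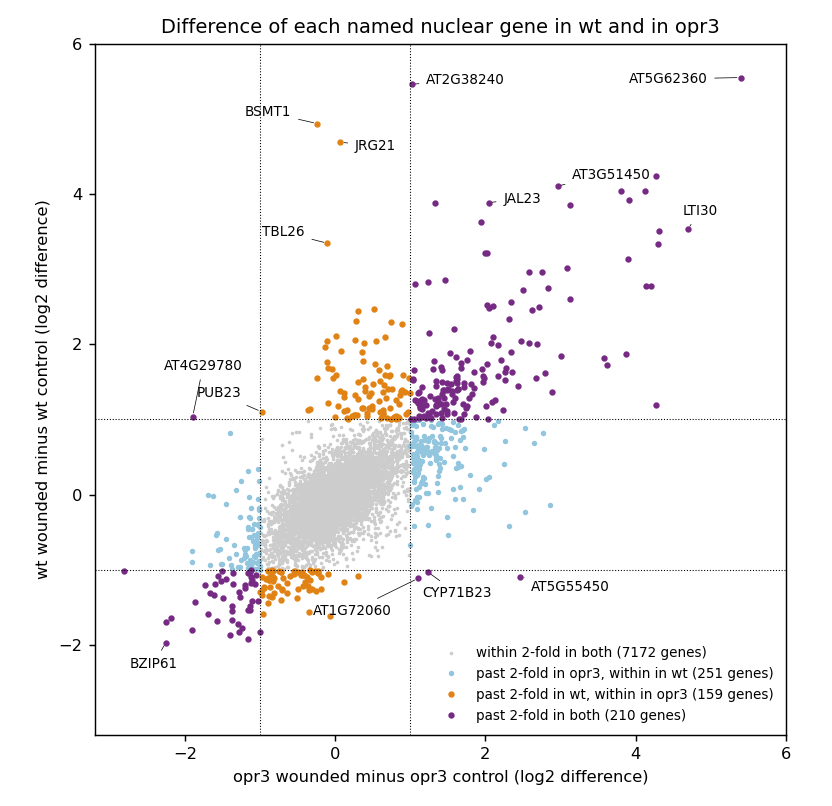
Log2 difference of each of 7792 named nuclear genes, wt wounded minus wt control (y axis) against opr3 wounded minus opr3 control (x axis), with dotted lines at 2-fold. Purple points (210) are past 2-fold in both lines, orange (159) in wt and within it in opr3, and light blue (251) the reverse. BSMT1, JRG21 and TBL26 lie high on the y axis near 0 on the x axis, and AT5G62360 and LTI30 are high on both.

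Some plastid-encoded genes, kept apart from the nuclear ones, were lower on the wt wounded array. Of 69 plastid probe sets, 23 lay at least 2-fold below their control (33.3%) and none above, with a median of -0.45; in opr3 none passed the limit and the median was -0.08. The gene with the largest difference was psaA, a core protein of photosystem I, with 7.27 in wt wounded and 11.87 in wt control leaves. It had 12.15 in opr3 wounded and 12.31 in opr3 control leaves, so 1 array of the 4 was low. Its partner psaB had 12.62 in wt wounded and 12.91 in wt control leaves, although both proteins are encoded side by side in one transcription unit.

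Within the other plastid complexes the differences also varied, over narrower ranges. Of 6 genes of the ATP synthase 3 were lower, with a median of -1.22; atpH had 8.46 in wt wounded and 11.53 in wt control leaves, while atpE had 13.12 in wt wounded and 13.14 in wt control leaves. Of 10 genes of the NDH complex 5 were lower, with a median of -0.91, from ndhH at -2.65 to ndhF at 0.22. Photosystem II had 5 of 15 lower, with psbD at -2.73 and psbA at -0.05. Cytochrome b6f ran from -1.79 to 0.00 with 1 of 6 lower, and the RNA polymerase from -1.40 to 0.26 with 1 of 4 lower. The large ribosomal subunit ran from -1.56 to 0.29 with 2 of 7 lower, and the small one from -1.16 to 0.60 with 1 of 8 lower. The other genes among the lowest 10 were psaC (-2.69), accD (-2.32), ycf4 (-2.17), psbB (-2.05), ndhA (-1.89) and ndhK (-1.84). The 15 mitochondrial probe sets showed no call, with a median of -0.18. The lower 5' signal of the control transcripts moves with the plastid values, since both single out the wt wounded array, and its part in them was not tested.

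**Figure D5:**
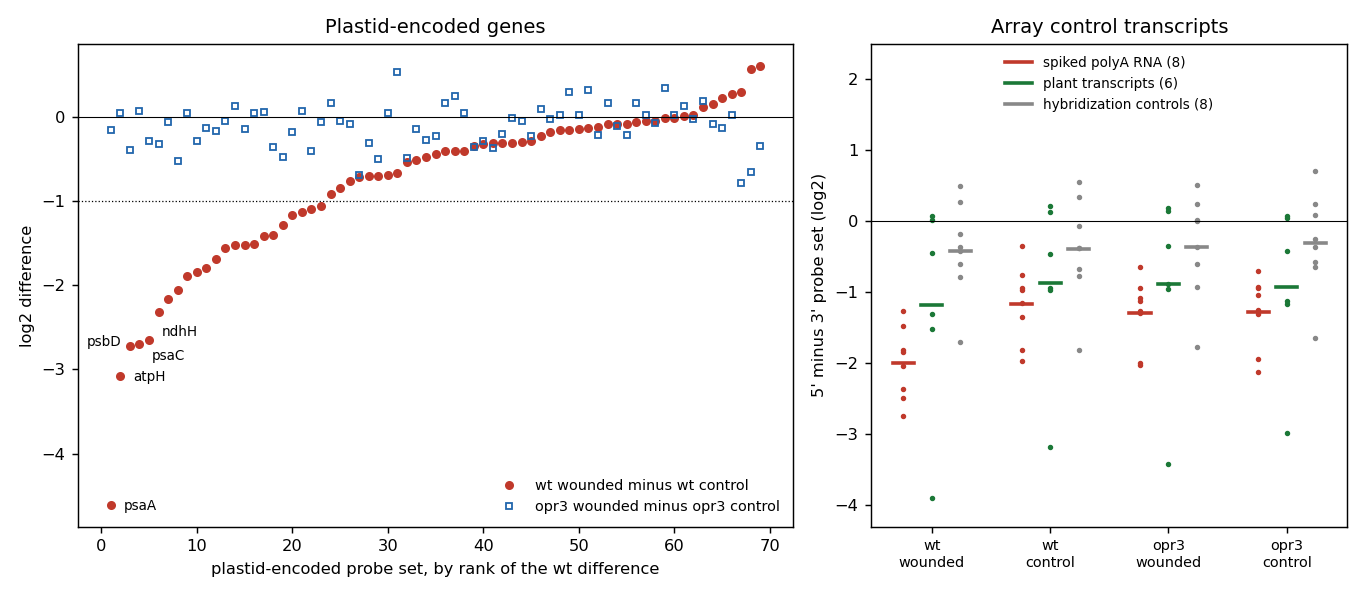
Left, log2 differences (y axis) of 69 plastid-encoded probe sets ranked by the wt difference (x axis), filled circles for wt and open squares for opr3; the dotted line marks 2-fold. Right, log2 value of the 5' probe set minus that of the 3' probe set (y axis) for array control transcripts on each of the 4 arrays (x axis), points for pairs and bars for their means. In wt 23 plastid probe sets lie under the 2-fold line, none in opr3, and the mean of the spiked RNA on the wt wounded array is -2.00.

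Probe sets of 1 nuclear gene differed from each other more in the wt contrast than in the others. In 85 named genes with several probe sets, the gap between the highest and the lowest log2 difference of a gene had a median of 0.49 in wt wounding and 0.16 in opr3 wounding. It was 0.12 between the 2 control arrays and 0.45 between the 2 wounded arrays, so the wider gaps went with the wt wounded array. Gaps of 2-fold or more occurred in 12 genes in wt and in none in opr3. Of 14 genes with a lower probe set in wt, 3 had all their probe sets lower, and 3 had another probe set above 0. AT4G01290 had -1.83 in one probe set and 0.14 in the other, and SIZ1, a SUMO ligase, had -1.14 and -0.20. Both were within 0.29 of 0 in every probe set in opr3. Of 2 genes with a higher probe set none had all probe sets higher; AT1G10090 had 1.44 and -0.16 in wt and 1.24 or more in both probe sets in opr3. Among the genes described above, AT2G31110 was the one with 2 probe sets.

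Calls also differed with gene length. Among the 1948 shortest named genes, up to 1680 bases from start to end in the gene table, 86 were higher (4.41%) and 39 lower in wt. Among the 1948 longest, from 3248 bases, 48 were higher (2.46%) and 26 lower. In opr3 the shortest genes had 105 higher (5.39%) and the longest 65 (3.34%).

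Genes that neighbour each other were now and then higher together. Of 2460 pairs of neighbouring genes that were both measured, 8 were both higher (0.325%) and 2 both lower, while 148 had at least 1 higher member. A neighbour of a higher gene was itself higher in 10.3% of cases, beside 3.3% of all named nuclear genes. The 8 pairs included COR15B with COR15A, AT4G15690 with the loci on either side of it, AT4G15680 (1.17) and AT4G15700 (1.35), and AT3G51440 (1.01) with AT3G51450. A further pair was AT5G62350 (1.51) with AT5G62360. Both members of this pair, of COR15B with COR15A and of AT3G51440 with AT3G51450 were also at least 2-fold higher in opr3. The same held for AT4G15680 with AT4G15690 and for AT1G16850 with AT1G16860. In the remaining pairs at least 1 member was within 2-fold in opr3. Neighbours are often copies of one gene, whose probes could respond to each other's transcript, and that was not tested here.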

How the data were processed

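The authors deposited log2 expression values per probe set; the submitters' processing notes name RMA and Partek and give no version. A genome build is not given in the sources used here. RMA shrinks low values towards each other, which understates the folds of weak genes. The number of arrays, 1 in each of 4 groups, limits the precision, and nothing was tested.

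Of 22810 probe sets, 64 array controls were set apart. The filter kept the 14612 probe sets that reached 4.73, the 40th percentile of all values, on at least 1 of the 4 arrays. Names came from the platform annotation, updated through the gene table of assembly TAIR10.1: 13436 of 13513 probe sets with 1 gene matched, and 503 with several genes were not named. The wt control value was subtracted from the wt wounded value, and 2-fold was the limit for a call. Genes were represented by the probe set with the highest mean. Gene lists were matched by locus or whole symbol, and 11 false matches of symbols were removed after the matches were seen. A gene given by its locus tag alone could be missed, so counts of measured genes cover the lists and not whole families. The members and lists were chosen with earlier results of these data known. Named genes were the 30 with the highest and the 20 with the lowest difference, the 10 lowest plastid genes, up to 6 called and 3 other genes of each list described, and up to 5 genes called in opposite directions in the 2 lines. Genes outside this rule were chosen after their values were seen: markers, neighbours, genes with several probe sets, SAG101, CML23, GLR3.6, LHCB4.3, UGT78D1, CYP84A4, psaB, atpE, psbA, ndhF, and those given as such in the text. Python 3.11.15, numpy 2.4.6, pandas 2.3.3 and statsmodels 0.14.6 (lowess) were used, and the steps were tested on simulated data. Alternatives were 3 array scalings, 3 filters, 2 other fold limits and the mean over the probe sets of a gene. Leaving out genes that passed the filter on 1 wt array alone was added after seeing the data. Promoter motifs, planned, were not analysed here.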

Additional observations from a re-analysis of the deposited data

Results flagged for a closer look

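The following 5 genes differed in opposite directions after wounding in wt and in opr3, and with 1 array a group the difference between the lines was not tested. AT5G55450 had 8.24 in wt wounded and 9.34 in wt control leaves (-1.09), and 10.32 in opr3 wounded and 7.85 in opr3 control leaves (2.47). CYP71B23, a cytochrome P450, differed by -1.03 in wt and 1.24 in opr3, and AT1G72060 by -1.12 in wt and 1.10 in opr3. For these 3 genes the opr3 wounded array was the highest of the 4 arrays.

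AT4G29780 had 7.21 in wt wounded and 6.17 in wt control leaves (1.04), and 6.77 in opr3 wounded and 8.67 in opr3 control leaves (-1.90). The ubiquitin ligase PUB23 differed by 1.10 in wt and by -0.98 in opr3, the second within 2-fold. In both genes the opr3 control array was the highest of the 4.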

How the results depend on the processing

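Each result is a difference of 2 arrays. The counts of nuclear probe sets kept within 1.5 times of 576 higher and 238 lower under each of 3 array scalings and 3 filters. Lowess gave 624 higher and 187 lower, a share of higher among the calls of 76.9% against 70.8%, and shifted the median by 0.06. The fold limit moved the counts: 1215 higher and 1211 lower at 1.5-fold, a share of 50.1%, and 251 and 31 at 3-fold, a share of 89.0%. At 3-fold, 12 plastid probe sets were lower in place of 23, and 0 neighbouring pairs were both higher in place of 8 (27 at 1.5-fold). The share of probe sets higher in wt that were also higher in opr3 was 67.5% at 1.5-fold and 50.2% at 3-fold, beside 60.8%. Of 603 repeats of gene differences under the scalings 3 changed sign, each of a value within 0.07 of 0, 3 left the limit (EXPB3 at -0.99 under quantile normalization and under lowess, CYP71B23 at -0.96 under lowess) and 3 came past it (CYP71B24 under both, CML42 at 1.05 under lowess). Of 245 repeats of list medians 8 changed sign, each from a median within 0.19 of 0, and 30 moved by 0.1 or more. Leaving out genes that passed the filter on 1 wt array alone, an alternative chosen after seeing the data, gave 40 higher and 10 lower listed genes in place of 45 and 10. The fold limits change the counts by construction, and the cause of the other changes was not tested. No paired analysis was possible because each group has 1 array, and no replicate could be left out. The promoter motif shares, with their 3-fold and window alternatives, were not run, since no promoter sequence was used here. The filter level of 4.73 bounds what low signals can show.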
